A study of Mus musculus with 13 samples.

Results

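The comparison described here asked, gene by gene, whether the expression difference between Sox9-deficient and control mouse limb buds was the same at 2 embryonic ages, E11.5 and E12.5 (days after conception). It covered all 12880 genes of the deposited table in all 13 RNA-seq libraries. At E11.5 the controls were Sox9fl/- (3 libraries) and the mutants Sox9-/- (4 libraries, labelled Sox9null). At E12.5 the controls were Sox9fl/fl (3 libraries) and the mutants Sox9fl/flPrx1CreER (3 libraries, labelled Sox9cKO). All groups carry an engineered Sox9 allele, and the E11.5 controls carry 1 lost copy of the gene. By these genotypes the mutants differ in kind: a null genotype at E11.5, and at E12.5 a deletion by a Cre recombinase. As general background, Prx1 regulatory sequence drives expression in limb mesenchyme. A recombinase of the CreER type is active only in the presence of the drug tamoxifen or a related compound. Age, allele and kind of deletion therefore cannot be told apart in any value below. Each library came from the limb buds of a separate embryo, so p-values measure the spread between embryos.

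Values were normalized RPKM, which scale reads by gene length and library depth. The effect at an age is the mutant mean minus the control mean of log2(RPKM + 1). The difference of effects is the E12.5 effect minus the E11.5 effect, so a negative value means that the mutants were lower relative to their controls at E12.5 than at E11.5. A gene was called when limma's two-sided p, adjusted by Benjamini-Hochberg over all 12880 genes, was under 0.05. On this scale the change of a gene with a low level is understated.

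SOX9 is the transcription factor that acts with SOX5 and SOX6 in mesenchymal cells as they condense and become chondrocytes, the cells of cartilage. Its known target genes code for the cartilage matrix: type II, IX and XI collagens, the large proteoglycan aggrecan, link protein and matrilins. Between the ages studied, the limb bud goes from condensing mesenchyme to the first differentiated cartilage, while the condensations also begin to form joints.

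Limb mesenchyme markers (Prrx1, Prrx2, Tbx4, Pitx1, Twist1, Meis1 and Meis2) were all listed, none was below 4.31 RPKM in any library, and their sum was 227 to 311 RPKM. Among the E11.5 libraries, control 1, control 3, Sox9null 3 and Sox9null 4 resembled each other (the set of 4), as did control 2, Sox9null 1 and Sox9null 2 (the set of 3), with r of log2 values of 0.979 to 0.989 within and 0.938 to 0.966 between the sets. The E12.5 libraries correlated at 0.962 to 0.988. The median SD of a gene on the log2 scale was 0.127 and 0.145 in the E11.5 control and Sox9null groups, against 0.0552 and 0.0568 in the E12.5 groups. By Y-linked genes, all 3 E12.5 controls were male and 2 of the 3 Sox9cKO embryos female, whereas each E11.5 group held 1 male. In whole limb buds, fewer cells of a type and less RNA per cell cannot be told apart.

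Sox9 RNA itself (chr11:112782224-112787760, mm10) stood at 35.8, 49.3 and 37.1 RPKM in the E11.5 controls and at 20.6, 25.7, 25.0 and 22.7 in Sox9null. At E12.5 it was 37.5, 35.2 and 35.9 in the controls and 35.1, 28.7 and 32.2 in Sox9cKO. The groups did not overlap at either age, which held for 2.47% of all genes at E11.5 and 20% at E12.5, and at E12.5 the nearest libraries were 35.2 and 35.1. The mutant mean was 57.7% of the control mean at E11.5 and 88.4% at E12.5. The effect was called at E11.5 (-0.76, limma adjusted p = 0.036) and not at E12.5 (-0.18, adjusted p = 1). For Sox9 the difference of effects was 0.58 (SE 0.162, 95% interval 0.23 to 0.93), with limma's adjusted p = 1. The sources used here do not give the deleted exons, and RPKM counted over all exons may hold RNA from a deleted allele.

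The difference of effects was called for 4 of 12880 genes (0.0311%) by limma: Gm15181, Gm11681 and Gm16156 with a positive difference (0.0233% of genes), and Mia1 with a negative one (0.00776%). At an unadjusted p under 0.05 there were 393 genes (3.05%), of which 301 (2.34%) had a negative and 92 (0.714%) a positive difference. A difference of at least 1 in size was found for 68 genes (0.528%), called or not. At the single ages, 7 genes were called at E11.5, all lower in the mutants (0.0543%), and 25 at E12.5 (0.194%), of which 18 were lower (0.14%) and 7 higher (0.0543%). These splits depend on single libraries: without Sox9cKO 1 the difference was called for 1 gene with a positive and 9 with a negative value, and without E12.5 control 1 or control 3 the E12.5 calls were 4 lower and 5 higher. An unadjusted p under 0.05 was reached by 2.82% of genes at E11.5 and 5.41% at E12.5. Both ages were tested on 1 spread shared by groups of unlike SD, so their calls and shares are not strictly comparable. Across all genes the median effect size was 0.0404 at E11.5 and 0.0532 at E12.5, and 50.6% of genes had effects of the same sign. The effects at the 2 ages, which share no library, had Pearson r = 0.219 and Spearman rho = 0.0601 across genes, given as a description since genes are not independent replicates. Quantile normalization and median centring moved the median difference of all genes from 0 to 0.01 and 0.03, and with library set as a term the same 4 genes were called.

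**Figure D1:**
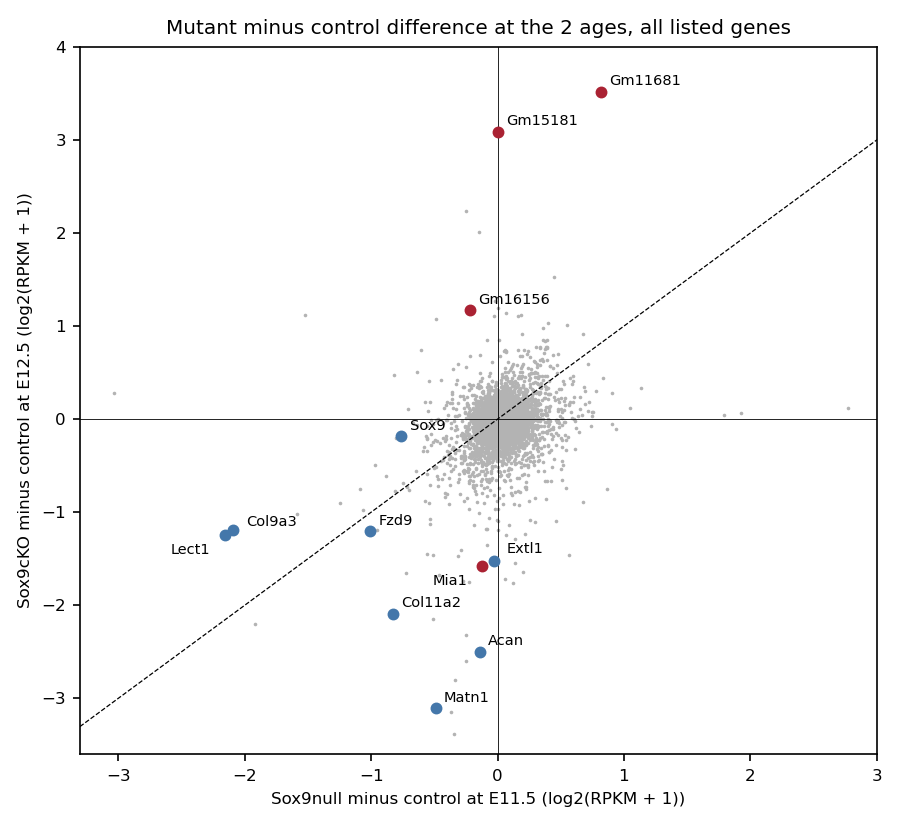
Each of the 12880 genes is a point at its Sox9null minus control effect at E11.5 (x axis) and its Sox9cKO minus control effect at E12.5 (y axis), both in log2(RPKM + 1); the dashed line marks equal effects, red points the 4 genes called for the difference and blue points other genes described in the text. Mia1, Extl1, Acan and Matn1 lie well below the line with E11.5 effects between -0.49 and -0.03, Fzd9 lies near it, and Sox9, Col9a3 and Lect1 lie above it.

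Mia1 codes for a small protein secreted by chondrocytes, also known as cartilage-derived retinoic acid-sensitive protein (chr7:27179742-27181157, minus strand). Its RPKM was 1.11, 1.05 and 1.36 in the E11.5 controls and 0.669, 1.07, 1.11 and 1.15 in Sox9null. At E12.5 it was 5.6, 4.45 and 6.03 in the controls and 1.21, 1.01 and 1.15 in Sox9cKO. The E11.5 groups overlapped, the E12.5 groups did not, and the Sox9cKO libraries were within the range of the E11.5 libraries. Mutants had 85.2% of the control mean at E11.5 and 20.9% at E12.5. Mia1 is listed only because its E12.5 control mean passed 3 RPKM, the limit for listing. The effect was -0.12 at E11.5 and -1.58 at E12.5, and the difference of effects -1.45 (SE 0.186, 95% interval -1.86 to -1.05; limma adjusted p = 0.0254). The call was kept without Sox9null 1, without E12.5 control 2 and without Sox9cKO 1; without any one of the other 10 libraries the adjusted p was 0.0608 to 0.13 and the difference -1.51 to -1.37. With 0.1 added in place of 1 the difference was -1.92 (adjusted p = 0.136), and with sex as a term -1.43 (adjusted p = 0.0703). The 1 male Sox9cKO library had 1.15 RPKM against 4.45 to 6.03 in the male controls, and a single library cannot separate sex from genotype.

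Extl1 (chr4:134356372-134383850, minus strand), a glycosyltransferase of the exostosin family that takes part in heparan sulfate chain synthesis, had the next smallest p among genes with a negative difference and was not called for it. It stood at 0.959, 1.47 and 1.5 RPKM in the E11.5 controls, 1.46, 1.27, 1.07 and 1.18 in Sox9null, 8.12, 5.26 and 7.56 in the E12.5 controls and 2.12, 1.65 and 1.44 in Sox9cKO. The control mean at E12.5 was 5.33 times that at E11.5 (4.57 times for Mia1), and the mutant mean 1.4 times (1.12 times for Mia1). Mutants had 95.2% of the control mean at E11.5 and 24.9% at E12.5, where the effect of -1.53 was called (limma adjusted p = 0.0024). The difference of effects was -1.5 (SE 0.221, 95% interval -1.98 to -1.01) with a limma adjusted p of 0.0565. It was called under 6 of the 26 alternative analyses, among them quantile normalization (-1.72, adjusted p = 0.0106) and sex as a term (-1.64, adjusted p = 0.0357).

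The 250 bases before the RefSeq starts of these 2 genes (GRCm38.p6, the assembly of mm10; read on the minus strand, 5′ to 3′) are shown because Mia1 and Extl1 had the smallest p-values among genes with a negative difference. No letters are in capitals because no searched motif was found in them.
Mia1, chr7:27181150-27181399: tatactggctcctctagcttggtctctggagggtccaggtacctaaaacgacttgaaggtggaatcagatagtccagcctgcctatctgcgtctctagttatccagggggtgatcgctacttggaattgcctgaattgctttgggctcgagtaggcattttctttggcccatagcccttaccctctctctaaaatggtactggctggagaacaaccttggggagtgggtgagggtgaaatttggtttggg
Extl1, chr4:134372548-134372797: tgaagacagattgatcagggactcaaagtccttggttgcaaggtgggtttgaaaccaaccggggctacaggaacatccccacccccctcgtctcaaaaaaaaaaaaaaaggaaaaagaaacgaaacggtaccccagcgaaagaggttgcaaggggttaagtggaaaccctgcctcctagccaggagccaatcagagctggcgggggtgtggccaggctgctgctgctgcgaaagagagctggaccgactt
SOX proteins bind short A and T rich motifs, and AACAAT and ACAAAG were searched on both strands. None of the promoters of Mia1, Extl1, Acan and Matn1 held either of them, against 24% of 32536 RefSeq promoters over the same length (AACAAT 9.35%, ACAAAG 16.5%). This says only that these letters are not in these windows. The RefSeq start of Extl1 lies inside the GENCODE span given above, so the annotations differ on its start and only the RefSeq window was searched.

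**Figure D2:**
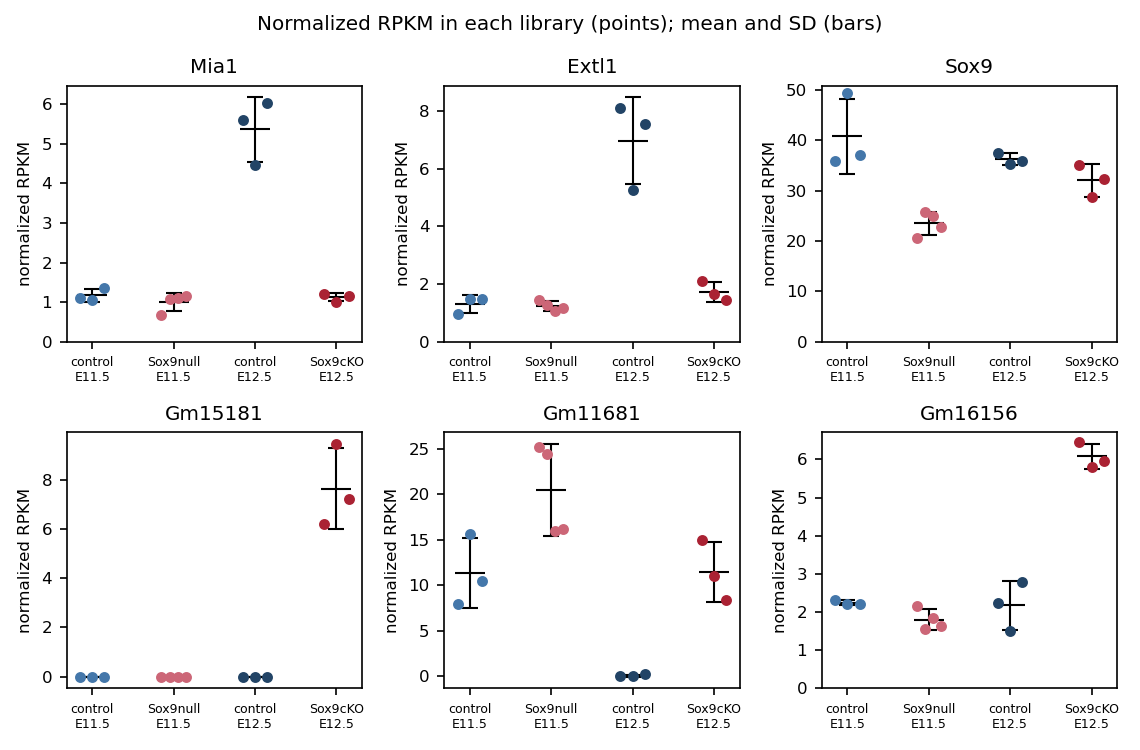
Normalized RPKM of 6 genes (one panel each, y axes differ) in the 13 libraries by group (x axis); points are libraries, the bars the mean and SD. Mia1 and Extl1 are high in the E12.5 controls alone, Gm15181 is above 0 in Sox9cKO alone, and Gm11681 is near 0 in the E12.5 controls alone.

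Aggrecan and matrilin-1, which belong to the matrix of differentiated cartilage, were hardly detected at E11.5. Acan (chr7:79053483-79115099), the core protein of the large cartilage proteoglycan, was at 0.065, 0.502 and 0.180 RPKM in the E11.5 controls and 0.129, 0.129, 0.137 and 0.104 in Sox9null. At E12.5 it was at 8.43, 3.25 and 10.5 in the controls and at 0.923, 0.091 and 0.225 in Sox9cKO. The E12.5 effect of -2.50 was called (limma adjusted p = 0.00726), and the mutant mean was 5.58% of the control mean. Its difference of effects was -2.36 (SE 0.443, 95% interval -3.33 to -1.39; limma adjusted p = 0.311).

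Matn1 (chr4:130944385-130955475), a matrilin that links collagen fibrils and aggrecan, was at 0.304, 0.414 and 0.725 RPKM in the E11.5 controls and 0, 0, 0.126 and 0.064 in Sox9null. At E12.5 it was at 13.5, 5.07 and 23.1 in the controls and at 0.963, 0.042 and 0.599 in Sox9cKO. Its groups did not overlap at either age, and mutants had 9.88% of the control mean at E11.5 and 3.85% at E12.5. For Matn1 the difference of effects was -2.62 (95% interval -3.80 to -1.45; limma adjusted p = 0.587). The control mean of log2(RPKM + 1) at E11.5 was 0.31 for Acan and 0.56 for Matn1. A reduction at E11.5 larger than these sizes was therefore not possible, and the negative difference on this scale rests mostly on the E12.5 libraries. For Mia1 and Extl1 the corresponding E11.5 control means were 1.12 and 1.20.

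Of the 5 SOX genes listed (Sox5, Sox6, Sox8, Sox9 and Sox10), none was called for the difference, and their median difference was 0.03 against 0 over all genes. Sox5 and Sox6, the partners of SOX9, were lower in the mutants at both ages by about the same amount. Sox5 effects were -0.72 and -0.73 (54.7% and 56.7% of control) and Sox6 effects -0.96 and -1.19 (43.8% and 41.7%). The 95% interval of the difference was -0.53 to 0.52 for Sox5 and -0.94 to 0.47 for Sox6. Sox10 had effects of -0.81 and -0.78, and Sox8, a close relative of Sox9, effects of 0.16 and 0.21; the E11.5 and E12.5 effects of these 4 genes were not called.

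The 7 cartilage collagen genes listed divided in both directions around 0, with 3 below and 4 above. Their median difference was 0.01 (-0.07 under quantile normalization, -0.1 with sex as a term). At an unadjusted p under 0.05, 1 had a positive and 2 a negative difference, against 0.714% and 2.34% of all genes. Col9a3, an alpha chain of type IX collagen, stood at 8.60, 17.1 and 15.2 RPKM in the E11.5 controls and 2.08, 2.78, 2.42 and 2.04 in Sox9null, and at 39.0, 31.1 and 39.3 against 20.0, 11.7 and 15.4 at E12.5. The groups were apart at both ages, and the mutants had 17.1% of the control mean at E11.5 and 43.0% at E12.5. Its difference was 0.90 (95% interval 0.22 to 1.58; limma adjusted p = 1), with a called effect at E11.5 (-2.09, adjusted p = 0.00653) and an uncalled one at E12.5 (-1.19, adjusted p = 0.0756). The other type IX chains had differences of 0.57 for Col9a2 (95% interval -0.10 to 1.23) and 0.01 for Col9a1 (-0.38 to 0.40).

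Col11a2, a chain of the type XI collagen of cartilage fibrils, went the other way. It stood at 2.24, 4.94 and 5.17 RPKM in the E11.5 controls and 1.62, 2.04, 1.60 and 1.8 in Sox9null, and at 23.4, 17.4 and 24.6 against 6.77, 2.69 and 4.21 at E12.5. The mutants had 42.9% of control at E11.5 and 20.9% at E12.5, with a difference of -1.26 (95% interval -2.09 to -0.43; limma adjusted p = 1) and a called E12.5 effect of -2.09. Col2a1, the main fibrillar collagen of cartilage, differed by 0.28 (95% interval -0.16 to 0.71; 53.6% and 65.3% of control). So within 1 group of matrix genes, limma called the mutants lower at E11.5 for Col9a2 and Col9a3 and at E12.5 for Col11a2, and called none of the 7 for the difference.

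**Figure D3:**
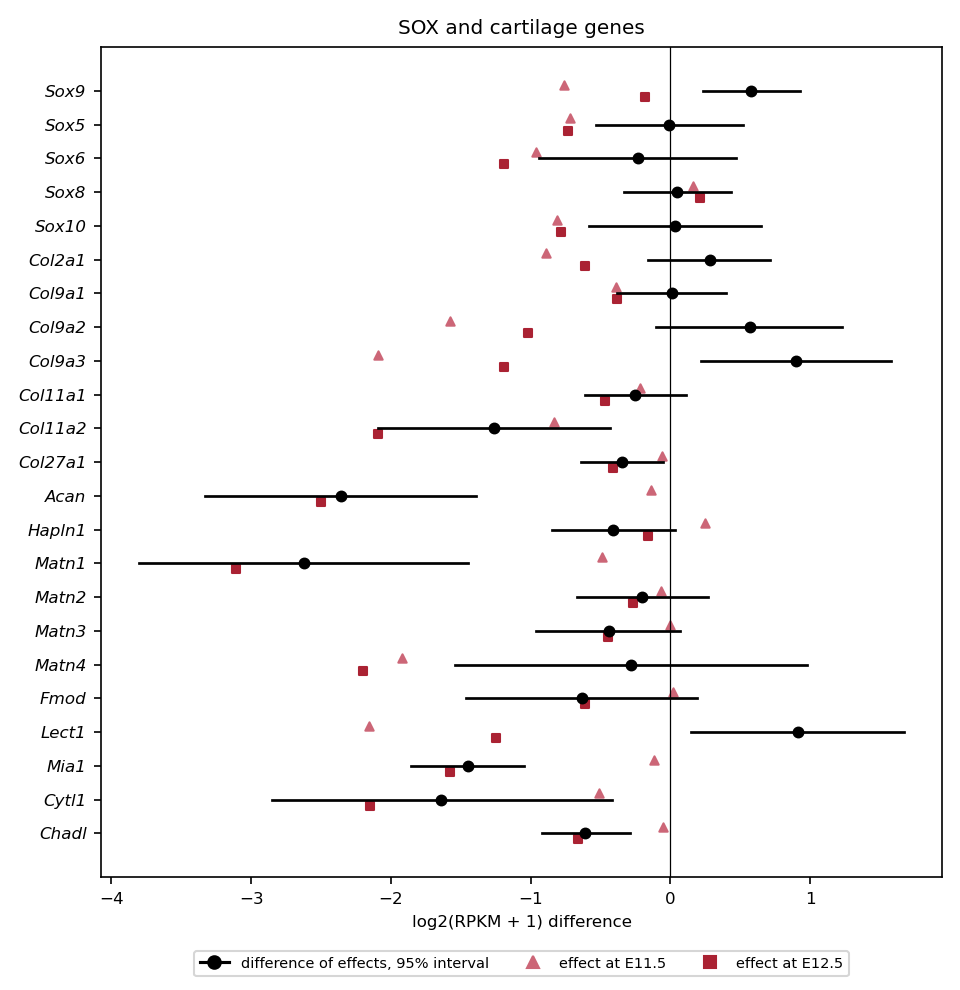
Effects at E11.5 (triangles) and E12.5 (squares) and the difference of effects with its 95% interval (circles and lines) for SOX and cartilage genes, in log2(RPKM + 1). Intervals of Acan, Matn1, Mia1, Cytl1, Col11a2, Col27a1 and Chadl lie below 0, those of Sox9, Col9a3 and Lect1 above 0, and those of Sox5, Sox6, Sox10, Col9a1 and Matn4 include 0.

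The list of cartilage proteoglycans and matrix adaptors held 12 symbols, of which 7 were among the listed genes, a table that omits genes low in all groups. All 7 had a difference below 0 (median -0.44), against 50.1% of all genes. Of the 7, 2, Acan and Matn1, were at an unadjusted p under 0.05, against 2.34% of all genes with a negative difference. The rest were Hapln1, the link protein that ties aggrecan to hyaluronan (-0.41, 95% interval -0.85 to 0.03), Matn2 (-0.20), Matn3 (-0.44), Matn4 (-0.28) and Fmod, a small proteoglycan that binds collagen fibrils (-0.63). Matn4 shows how far the scale matters: its log2 effect was -1.92 at E11.5 and -2.20 at E12.5, yet the mutants had 6.53% of control at E11.5 and 21.4% at E12.5.

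Small secreted cartilage proteins were listed for 4 of 9 symbols: Mia1, called as given above, Cytl1, Chadl and Lect1. Cytl1, a cytokine-like protein made by chondrocytes, was at 0.555, 0.928 and 1.49 RPKM in the E11.5 controls, 0, 0.739, 0.452 and 0.394 in Sox9null, 19.1, 6.37 and 16.3 in the E12.5 controls and 4.00, 0.859 and 2.13 in Sox9cKO. Its difference was -1.64 (95% interval -2.85 to -0.42). Chadl, related to the matrix protein chondroadherin, was at 94.9% of control at E11.5 and 56.1% at E12.5, with a difference of -0.61 (95% interval -0.92 to -0.29). Lect1, which codes for chondromodulin, a cartilage protein that inhibits vessel growth, showed the opposite order. It was at 4.59, 4.17 and 8.85 RPKM in the E11.5 controls and 0.439, 0.547, 0.444 and 0.451 in Sox9null, and at 13.1, 12.9 and 15.8 against 7.16, 3.24 and 6.08 at E12.5. Mutants had 8.01% of control at E11.5 and 39.3% at E12.5, and the difference was 0.91 (95% interval 0.15 to 1.67; limma adjusted p = 1).

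**Figure D4:**
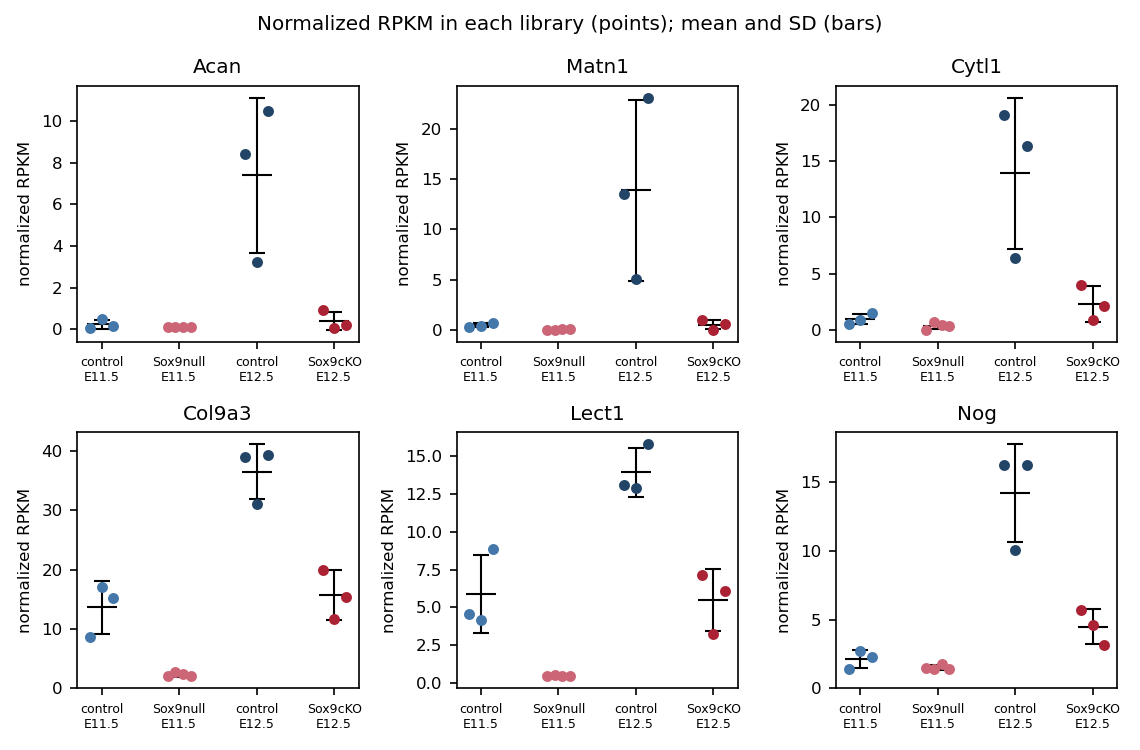
Normalized RPKM of 6 cartilage and joint genes (one panel each, y axes differ) in the 13 libraries by group (x axis); points are libraries, the bars the mean and SD. Acan, Matn1 and Cytl1 have low E11.5 levels and high E12.5 control levels, whereas Col9a3 and Lect1 are already apart between controls and Sox9null at E11.5.

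Enzymes that make and sulfate glycosaminoglycans, the sugar chains of proteoglycans, were listed for 22 of 23 symbols. Their median difference was -0.12, with 18 below and 4 above 0, against 50.1% of all genes below 0. None was called for the difference, while Extl1 and Chst11 were called lower at E12.5, against 0.14% of all genes. At an unadjusted p under 0.05, 4 had a negative difference, against 2.34% of all genes. Besides Extl1 these were Papss2, which makes the sulfate donor (-0.89; 60.4% and 35.0% of control), and the chondroitin sulfotransferases Chst11 (-0.36; E12.5 effect -0.53, limma adjusted p = 0.024) and Chst15 (-0.35). Papss2 RPKM was 3.98, 8.72 and 7.53 in the E11.5 controls, 4.35, 4.68, 4.01 and 3.27 in Sox9null, 36.4, 22.2 and 35.3 in the E12.5 controls and 15.3, 9.21 and 8.32 in Sox9cKO. Its control level was higher at E12.5 by 4.64 times and its mutant level by 2.69 times.

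Genes with called effects at both ages included Fzd9 and Enpp2. Fzd9, a receptor for WNT ligands, was at 2.24, 3.18 and 3.27 RPKM in the E11.5 controls and 0.784, 0.910, 0.933 and 1.06 in Sox9null, and at 10.8, 8.38 and 9.92 against 4.31, 3.39 and 3.24 at E12.5. Mutants had 31.8% and 37.6% of control, effects were -1.01 and -1.20, and the 95% interval of the difference was -0.60 to 0.21. Enpp2, the enzyme autotaxin that makes the lipid signal lysophosphatidic acid, had effects of -0.75 and -0.69 (55.7% and 60.3% of control; interval of the difference -0.24 to 0.36). Cdh22, a cadherin, was higher in the mutants at both ages: 4.09, 3.93 and 4.48 RPKM in the E11.5 controls against 6.78, 7.54, 7.78 and 7.00 in Sox9null, and 3.65, 2.73 and 3.51 against 7.88, 7.63 and 5.91 at E12.5. Its effect was 0.68 at E11.5 (limma adjusted p = 0.0554) and 0.92 at E12.5 (adjusted p = 0.0062), with an interval of the difference from -0.10 to 0.58.

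Joint interzone genes were listed for 13 of 14 symbols. Their median difference was -0.28, with 10 below 0, against 50.1% of all genes. At an unadjusted p under 0.05, 4 had a negative difference, against 2.34% of all genes, and none was called for the difference. Of the 13, 2 genes, Nog and Enpp2, were called lower at E12.5, against 0.14% of all genes. Nog, a secreted antagonist of BMP signals, was at 1.44, 2.74 and 2.30 RPKM in the E11.5 controls and 1.46, 1.42, 1.74 and 1.43 in Sox9null, and at 16.3, 10.1 and 16.3 against 5.73, 4.61 and 3.16 at E12.5. Mutants had 70.1% of control at E11.5 and 31.6% at E12.5, the E12.5 effect was -1.47 (limma adjusted p = 0.0159), and the difference was -1.16 (95% interval -1.8 to -0.51). Wnt4, a WNT ligand of the forming joint, was on the higher side in Sox9null (133% of control) and on the lower in Sox9cKO (74.7%), with a difference of -0.73 (95% interval -1.15 to -0.32). Gdf5 and Gdf6, BMP family ligands of the forming joint, had differences of -0.64 and -0.48. Gdf5 was at 92.6% of control at E11.5 and 60.1% at E12.5.

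Precartilaginous condensation genes were listed for 23 of 24 symbols and had a median difference of 0.03, with 11 below and 12 above 0; it was -0.05 under quantile normalization and -0.13 with sex as a term. Foxc2 (-0.51) and Cthrc1, a secreted collagen triple helix repeat protein (-0.59), were those at an unadjusted p under 0.05. Over all genes, 2.34% had a negative difference at that threshold. Other genes called at E12.5 but neither at E11.5 nor for the difference included Anxa8, an annexin (difference -1.52), Sema3c, a secreted guidance protein (-0.55), Glt25d2, a collagen galactosyltransferase (-0.53), and Fam101a (-0.93). Anxa8 was at 1.51, 0.240 and 1.35 RPKM in the E11.5 controls, 0.707, 0.383, 0.569 and 1.05 in Sox9null, 5.92, 3.21 and 5.78 in the E12.5 controls and 0.683, 0.890 and 0.638 in Sox9cKO. Within the E11.5 set of 4 libraries its effect was -0.44 and within the set of 3 it was 0.31.

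The 3 genes called with a positive difference were all transcripts of unknown function. Gm15181, annotated as an unprocessed pseudogene (chr1:75514107-75514283, minus strand), was listed at 0 in all 10 libraries of the other groups and at 6.22, 9.45 and 7.23 RPKM in Sox9cKO. Sox9cKO is the one group whose genotype in the header contains Prx1CreER. The difference was 3.09 (SE 0.196, 95% interval 2.67 to 3.52; limma adjusted p = 3.21e-05), a size set by the added constant (6.25 with 0.1 in place of 1). The call was kept without each of the 10 libraries of the other groups in turn. All of these were at 0, so leaving any of them out could not move the difference. Those groups had an SD of 0, which lowers the shared spread behind the p-value. Without a Sox9cKO library the gene no longer passed the filter. Its neighbours within 10 kb, Obsl1, Inha and Stk11ip, had E12.5 means of 29.6 and 28.8, 10.5 and 7.89, and 18.7 and 18.5 RPKM in control and Sox9cKO.

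Gm11681, a long intergenic RNA (chr11:112792731-112799008, minus strand), lies 4971 bases beyond the end of Sox9, on the opposite strand. It was at 7.96, 15.6 and 10.5 RPKM in the E11.5 controls, 25.2, 24.5, 16 and 16.2 in Sox9null, 0, 0 and 0.201 in the E12.5 controls and 15, 11.0 and 8.43 in Sox9cKO. The Sox9fl/fl controls, whose genotype holds neither a minus allele nor Cre, were the only group near 0, and the level was highest in Sox9-/-. The effect was 0.82 at E11.5 (limma adjusted p = 0.902) and 3.52 at E12.5 (adjusted p = 8.15e-05), and the difference 2.70 (SE 0.348, 95% interval 1.94 to 3.46; adjusted p = 0.0254). The control mean differed between the ages by far more than the mutant mean (log2 changes of -3.49 and -0.79), and the controls of the 2 ages differ in genotype as well as in age. Without any one of E11.5 control 3, Sox9null 2, 3 or 4, the 3 E12.5 controls, or Sox9cKO 2 or 3, the adjusted p was 0.0608 to 0.13.

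Gm16156 (chr8:105934333-105945843) was at 2.32, 2.22 and 2.20 RPKM in the E11.5 controls, 2.17, 1.56, 1.84 and 1.63 in Sox9null, 2.24, 1.51 and 2.78 in the E12.5 controls and 6.46, 5.81 and 5.97 in Sox9cKO. The E11.5 groups were narrowly apart, with Sox9null lower, and the Sox9cKO libraries were above all others. The difference was 1.39 (SE 0.191, 95% interval 0.97 to 1.81; limma adjusted p = 0.0347). The transcript is antisense to Psmb10, Lcat and Slc12a4, which it overlaps, and the use of strand in counting is not given, so their reads cannot be kept apart. Those genes had E12.5 means of 11.0 and 11.6, 3.32 and 3.39, and 22.5 and 19.4 RPKM in control and Sox9cKO. The call was kept without Sox9null 1, E12.5 control 2 or E12.5 control 3, and lost without any one of the other 10 libraries (adjusted p 0.061 to 0.161); with sex as a term the adjusted p was 0.101, and with 0.1 added in place of 1 it was 0.112.

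Gm15557, singled out after its values were seen, overlaps 1728 bases of Gdf5 on the opposite strand. The gene was not called for the difference (2.15, 95% interval 1.35 to 2.96, limma adjusted p = 0.186). Gm15557 was called higher in Sox9cKO at E12.5 (effect 2.01, limma adjusted p = 0.00851). It was at 2.13, 0.586 and 2.17 RPKM in the E12.5 controls and 11.4, 10.2 and 6.39 in Sox9cKO, and at 3.26 to 5.35 in all E11.5 libraries. Gdf5 was lower in the same Sox9cKO libraries, at 27.6, 25.6 and 16.1 against 39.6, 36.2 and 39.5 RPKM. Within Sox9cKO, however, both genes had the same order of libraries, highest in Sox9cKO 1 and lowest in Sox9cKO 3. Strand use in counting is not given, so reads of the overlapping bases cannot be kept apart. A relation between these genes was not tested.

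Other genes with small p-values and a positive difference, none of them called, were Bend4 (0.38), Akr1e1 (1.56), Ddi2 (0.55), Mertk (0.28), Nkain1 (0.27) and Fbxo44 (2.64). Ddi2 was called under 3 of 26 alternatives, and its difference was 0.76 with only the E11.5 set of 4 libraries (limma adjusted p = 0.00836) and 0.18 with only the set of 3. For Fbxo44, an F-box protein of a ubiquitin ligase, the libraries of a group were far apart: 4.23, 0.349 and 5.99 RPKM in the E11.5 controls and 1.06, 0.958 and 6.68 in the E12.5 controls, against 0.218, 0.262, 0.270 and 0.35 in Sox9null and 5.77, 5.47 and 6.24 in Sox9cKO. Akr1e1, an aldo-keto reductase, had 6.72, 2.40 and 7.03 RPKM in the E11.5 controls and 2.44, 2.40 and 5.15 in the E12.5 controls. The control libraries of an age did not hold together in either gene.

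Among the uncalled negative differences, Cmtm5 (-1.21), Slpi, a secreted protease inhibitor (-1.11), and Cd83, a surface protein of immune cells (-0.94), had higher control levels at E12.5. Cmtm5 had 24.1% of control at E11.5 and 20.1% at E12.5, so its difference on the log2 scale came with nearly equal ratios. The small RNA genes U6 (-1.61), Mir323 (-1.24) and Snora47 (-1.15) were the rest; RPKM of such short genes rest on few reads.

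Signalling and patterning lists had medians near that of all genes. The median difference was -0.03 for 23 BMP, -0.01 for 33 WNT, 0.06 for 18 FGF and -0.01 for 13 hedgehog pathway genes, and 0.05 for 38 limb patterning transcription factors, with no gene of these lists called for the difference. Members at an unadjusted p under 0.05 included the BMP antagonist Grem1 (0.53), the WNT antagonist Frzb (0.63), Hhip, a hedgehog-binding inhibitor (-0.60), and the homeobox genes Irx2 (-0.79) and Emx2 (-0.88). Frzb was at 91.4% of control at E11.5 and 138% at E12.5. Vegfa, a growth factor for blood vessels, had a difference of -0.35, with 121% and 93.8% of control.

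**Figure D5:**
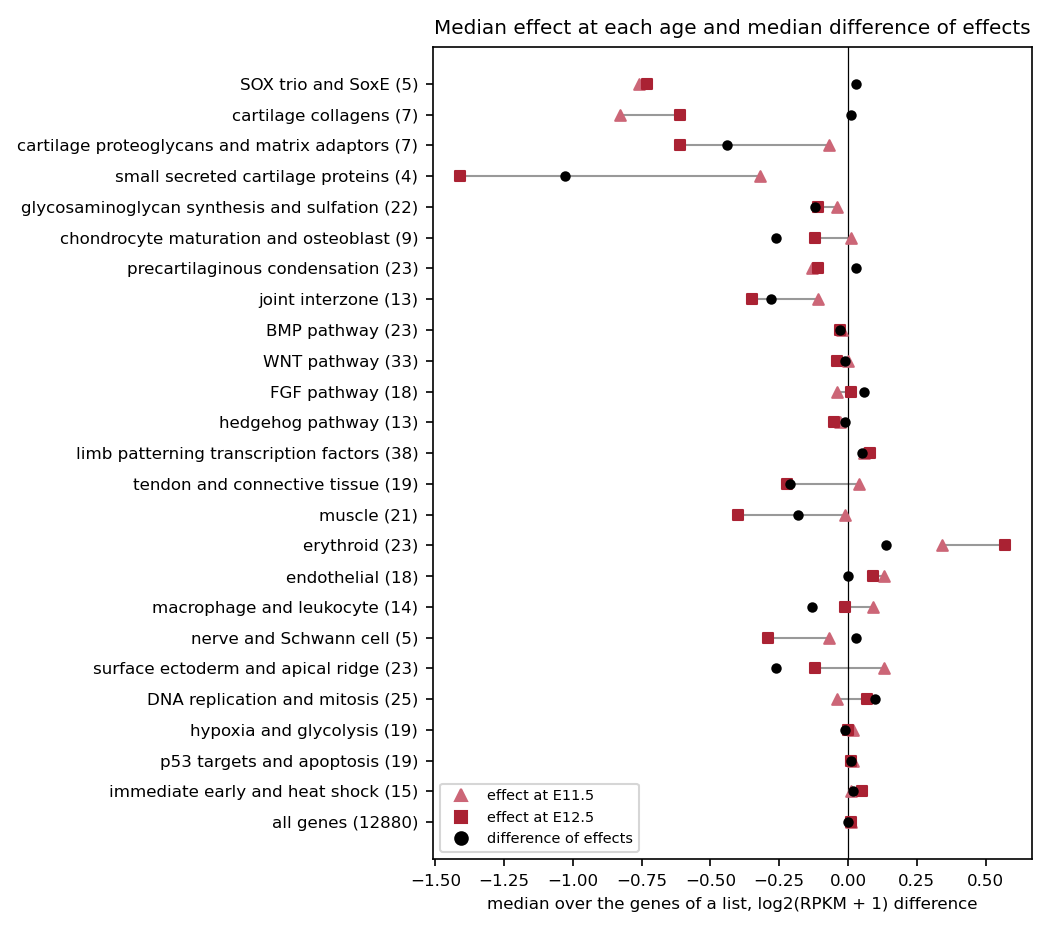
Median over the listed genes of each list (number in brackets) of the effect at E11.5 (triangles), the effect at E12.5 (squares) and the difference of effects (circles), in log2(RPKM + 1). Small secreted cartilage proteins have a median difference of -1.03 and proteoglycans one of -0.44, whereas SOX genes and cartilage collagens have medians near 0 with effects well below 0 at both ages.

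Several lists of other cell types, though not all, also had uneven counts of positive and negative differences, against 50.1% of all genes below 0. In none of these lists was a difference of effects called. Of 23 surface ectoderm and apical ridge genes listed, 20 had a difference below 0 (median -0.26), among them the keratin Krt15 (-1.04, 95% interval -1.69 to -0.39; 139% and 60.9% of control). The summed level of 5 ectoderm markers was 77.0 to 80.8 RPKM in the E11.5 controls, 80.7 to 110 in Sox9null, at least 110 in the E12.5 controls and 85.7 to 110 in Sox9cKO. Of 23 erythroid genes, 18 had a difference above 0 (median 0.14), including Klf1, the erythroid transcription factor (0.72, 95% interval 0.12 to 1.33; 120% and 206% of control). The sum of 8 erythroid markers was 784 to 894 and 804 to 1410 RPKM in E11.5 controls and Sox9null, and 594 to 648 and 821 to 1020 in E12.5 controls and Sox9cKO. The E11.5 groups overlapped in this sum and the E12.5 groups did not. At E12.5, 2 of the 23 erythroid genes were called higher in Sox9cKO, against 0.0543% of all genes. They were Spnb1 (effect 0.76, limma adjusted p = 0.0159) and Rhag (effect 0.77, adjusted p = 0.0375). With only the E11.5 set of 4 libraries the median difference was -0.15 for the ectoderm and 0.04 for the erythroid list, and with only the set of 3 it was -0.31 and 0.40.

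Muscle genes had 17 of 21 listed members below 0 (median -0.18; Des, an intermediate filament protein of muscle, -0.69), and the sum of 5 muscle markers was 130 to 153 RPKM in the E12.5 controls and 95.9 to 138 in Sox9cKO, overlapping. Tendon and connective tissue genes had 14 of 19 below 0 (median -0.21), and DNA replication and mitosis genes 22 of 25 above 0 (median 0.10). Of all genes, 50.1% were below 0. Counts were nearer to even in the endothelial list, with a median of 0 and 10 of 18 below. The macrophage and leukocyte list had 8 of 14 below (median -0.13), and the nerve and Schwann cell list 2 of 5 (median 0.03). With sex as a term the median was -0.42 for the muscle and -0.45 for the tendon list, and with only the E11.5 set of 4 libraries it was -0.18 and -0.07. The part of cell composition in the differences of cartilage genes was not tested.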

How the data were processed

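RNA was measured by RNA-seq in 13 limb bud libraries. The authors deposited normalized RPKM per gene; per the submitters' processing notes CASAVA 1.8 and mm10 were used, while the sources used here do not give the aligner, counting, strand use, annotation, depth or normalization between libraries. Per the file headers a gene was listed if some group averaged at least 3 RPKM (lowest such mean 3.13), so genes low in all groups are missing. Among others, Mia1, Extl1, Acan, Matn1 and Slpi reached that mean only in the E12.5 controls, and Gm15181 and Gm16156 only in Sox9cKO. Such genes entered through the group where they were high, and the counts of differences include them. Coordinates came from GENCODE (GRCm38), which held 12715 of the 12880 identifiers.

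Values were analysed as log2(RPKM + 1) in limma 3.58.1 (R 4.3.3; variance trend, robust estimation) by group means of the 4 groups and 1 shared spread per gene; no gene was removed by a filter of 1 RPKM in 3 libraries. Besides Sox9 and called list members, up to 10 genes per direction were named by smallest p or, if called, by size; predicted genes were left out unless called. The members and the 25 gene lists were chosen with earlier results of these data known. A gene called at both ages is not reported here. In all, 24 alternatives were planned and 2 (each E11.5 library set alone) were added after seeing the data.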

Additional observations from a re-analysis of the deposited data

Results flagged for a closer look

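In 4 genes the mutant minus control difference itself differed between E11.5 and E12.5 by limma's test of that difference (adjusted p under 0.05). Gm15181 had a difference of 3.09, being listed at 0 outside Sox9cKO. Gm11681 had a difference of 2.7, with E12.5 controls near 0. Gm16156 had a difference of 1.39, with Sox9cKO above the other groups. Mia1 had a difference of -1.45, with E12.5 controls above the other groups. Mia1 is listed only because of those controls, and Gm15181 and Gm16156 only because of Sox9cKO, as their other groups averaged under 3 RPKM. The ages also differ in genotype, which cannot be told apart from age.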

How the results depend on the processing

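The difference of effects was called for 4 genes. It was called for 2 with 0.1 or 0.5 added in place of 1, for 2 with at least 5 RPKM required in 3 libraries, for 7 with array weights, for 8 with only the E11.5 set of 4 libraries, and for 2 with only the set of 3. Leaving out 1 library gave 0 calls (limma, without Sox9cKO 2 or 3; 412 and 241 genes at an unadjusted p under 0.05) to 10 (without Sox9cKO 1, 1 higher and 9 lower). At E11.5, 7 genes were called, against 13 with median centring, 32 with array weights, 41 with library set as a term, 27 with the set of 4, 1 with the set of 3, and 2 to 8 without 1 library. At E12.5, 25 genes were called, against 57 with quantile normalization, 328 with array weights, 105 with library set as a term, 84 and 55 with the E11.5 sets of 4 and 3, and 9 to 45 without 1 library. Leaving out E11.5 libraries cannot move an E12.5 effect, which is a difference of E12.5 means, and acts on the shared spread alone. The median SD was 0.127 and 0.145 in the E11.5 groups and 0.0552 and 0.0568 in the E12.5 groups. A shared spread is thus wide for E12.5 and narrow for E11.5, and counts of the 2 ages are not strictly comparable. The cause of the other changes was not tested.

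A replicate block gave 0 calls for the difference (462 genes at an unadjusted p under 0.05) and 16 at E12.5, and Gm15181 then had an adjusted p of 0.0542. The numbers only name libraries: same-numbered libraries correlated in their deviations at -0.435 to 0.635 at E11.5 and at -0.117 to 0.169 at E12.5, and 2 of 13 libraries correlated best with their own number, so no pairing was used. No named gene's difference changed sign under the 26 alternatives, whereas the medians of cartilage collagens and condensation genes, both near 0, did. The named genes were picked for small p-values or large differences in these same libraries, so their stable sign says little. For the named genes, 453 values kept their side of the threshold, 46 lost the call and 9 gained it. Most of the 453 came from uncalled genes that stayed uncalled, and all 46 from the 4 called genes. Among these 4, the call was kept in 22 of 23 alternatives for Gm15181 and 15 of 26 for Gm11681. It was kept in 8 of 26 for Gm16156 and 9 of 25 for Mia1. For Gm15181, 10 of the 23 alternatives left out a library at 0, which could not move the difference. Leaving out a Sox9cKO library took this gene out of the test, so its share is not comparable with the others. Depth is not given, which limits what low values can show.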

Other observations

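Slpi (chr2:164354070-164389095, minus strand) lies next to Matn4 (chr2:164389393-164405160, minus strand) in the annotation, with its start facing the end of Matn4. Slpi was at 0.515, 0.606 and 0.779 RPKM in the E11.5 controls, 0.118, 0.549, 0.427 and 0.271 in Sox9null, 4.39, 4.22 and 4.31 in the E12.5 controls and 1.69, 0.709 and 0.763 in Sox9cKO. Matn4, a matrilin, was at 1.77, 5.01 and 5.29 RPKM, 0.158, 0.603, 0.178 and 0.111, 24.1, 16 and 24, and 8.97, 1.87 and 2.86 RPKM in the same groups. In both genes Sox9cKO 1 was the highest of the 3 Sox9cKO libraries.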
